A study of Mus musculus with 4 samples.

Results

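The solute carrier genes were taken from the table of start sites as the rows whose symbol begins with Slc, a family number and a letter, with Slc2a4, Slc6a8 and pseudogenes left out. They comprised 134 of the 9838 genes in the table and 383 of its 42207 alternative start sites (ASSs). By this rule 2 genes were included that do not encode transporters, Slc4a1ap and Slc7a6os. They are counted below in the inorganic ion class and the amino acid class. The libraries were made by WTSS-seq, which reads the 5′ ends of RNA after depletion of ribosomal RNA, and each read gives the position of such an end, whether of a whole transcript or of a fragment. Total RNA came from gastrocnemius muscle of C57BL/6 mice of about 8 weeks, with 2 AMPKα2 knockout mice (KO) and 2 wild-type mice (WT), 1 library per mouse. The KO mice lack part of the catalytic domain of AMPKα2, encoded by Prkaa2, in the whole body, so the muscle fibres were not the only cells without it. The labels name no treatment in either group.

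Solute carriers are membrane proteins that move amino acids, sugars, ions, metals, nucleotides and metabolites across the plasma membrane or the inner mitochondrial membrane, most of them without using ATP directly. In skeletal muscle they are known for lactate exchange, the exchange of ADP for ATP in mitochondria, calcium extrusion, carnitine and amino acid uptake. AMPK is a kinase that senses a low energy state of the cell and acts on several uptake and fuel pathways in muscle.

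The libraries held 2900279 and 2303294 reads in KO against 1300069 and 1568945 reads in WT, so both KO libraries were deeper. A count of 3 reads, taken as the floor, was 1.03 to 2.31 ppm of a library. Counts summed over the 19 sites of Prkaa2 did not separate the genotypes. They were 149 and 182.6 after normalization in KO against 152.8 and 185.6 in WT, and 2 of the sites had no reads in KO against 24 and 12 in WT. All 12 muscle fibre markers of the marker list were read, and they took 61120 to 86430 ppm of the reads outside ribosomal and mitochondrial RNA. Fibroblast markers took 3323 and 2948 ppm in KO against 4860 and 4864 in WT. Of the 9 tested, DESeq2 called 1 lower in KO, Sparc (DESeq2 adjusted p = 0.0739), and edgeR did not call it (edgeR adjusted p = 0.255). Genes of the adipocyte list took 21640 to 31590 ppm and endothelial genes 223.4 to 270.2 ppm. Most reads of the adipocyte list were of Car3, at 32488 and 42376 in KO against 18241 and 17083 in WT. After normalization its counts were 19840 and 37030 in KO against 25580 and 21280 in WT, which overlapped. The study describes Car3 as abundant in slow-twitch muscle, so the share of the list does not measure adipocytes alone. Adipoq had 46 and 41 reads in KO against 25 and 18 in WT. After normalization it overlapped too, at 28.1 and 35.83 in KO against 35.06 and 22.42 in WT. Other lists ranged from 293.4 to 903.7 ppm for slow fibre genes, 12.05 to 75.79 for Schwann cell genes and 52.3 to 146.7 for blood genes, with the beta-globin genes absent from the table. As this is bulk tissue, fewer cells of a type and less RNA per cell cannot be told apart. The p-values given here measure the spread between these 4 libraries.

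Very few solute carrier reads began at an annotated gene start. Of 359 sites on the strand of their gene, 5 lay within 100 bp of the RefSeq gene start, which was 1.393% against 2.838% of such sites over all genes. They took 0.3463% and 0.9111% of the solute carrier reads in KO and 1.039% and 1.558% in WT, against 6.143% to 10.34% of the reads of all genes outside ribosomal and mitochondrial RNA. Both KO libraries were below both WT libraries, but no test was made, since the smallest p of an exact permutation of 2 against 2 libraries is 0.333. RefSeq promoter windows of the build GRCm38.p6, with 250 bases before and 50 after a transcript start, some genes having more than 1 such start, were at hand for 104 of the 134 genes, and a site fell into the window of 6 of them. All 6 are printed below because they are the solute carriers whose reads can be set beside an annotated transcript start. Each runs 5′ to 3′ on the strand of the gene, and the capitals mark the bases covered by the site.
Slc3a2, chr19:8713848-8714147 (- strand): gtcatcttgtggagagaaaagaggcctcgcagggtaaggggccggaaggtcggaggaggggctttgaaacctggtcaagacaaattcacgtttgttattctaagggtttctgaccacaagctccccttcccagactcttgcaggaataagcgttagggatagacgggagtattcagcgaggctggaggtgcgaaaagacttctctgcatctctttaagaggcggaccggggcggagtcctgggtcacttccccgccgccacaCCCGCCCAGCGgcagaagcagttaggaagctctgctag
Slc25a28, chr19:43674832-43675131 (- strand): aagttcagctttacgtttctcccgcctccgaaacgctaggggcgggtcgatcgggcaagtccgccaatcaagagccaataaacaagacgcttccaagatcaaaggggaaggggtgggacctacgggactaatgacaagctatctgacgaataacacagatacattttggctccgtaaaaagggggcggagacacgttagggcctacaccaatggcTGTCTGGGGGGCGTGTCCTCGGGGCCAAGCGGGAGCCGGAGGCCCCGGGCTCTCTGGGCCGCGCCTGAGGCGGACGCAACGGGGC
Slc35f5, chr1:125560345-125560644 (+ strand): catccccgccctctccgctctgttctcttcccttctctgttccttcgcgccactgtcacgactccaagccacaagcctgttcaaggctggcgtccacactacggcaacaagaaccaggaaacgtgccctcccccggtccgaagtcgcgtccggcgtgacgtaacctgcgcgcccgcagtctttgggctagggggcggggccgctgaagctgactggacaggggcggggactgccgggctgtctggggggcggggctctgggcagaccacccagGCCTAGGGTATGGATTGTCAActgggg
Slc25a4, chr8:46211013-46211312 (- strand): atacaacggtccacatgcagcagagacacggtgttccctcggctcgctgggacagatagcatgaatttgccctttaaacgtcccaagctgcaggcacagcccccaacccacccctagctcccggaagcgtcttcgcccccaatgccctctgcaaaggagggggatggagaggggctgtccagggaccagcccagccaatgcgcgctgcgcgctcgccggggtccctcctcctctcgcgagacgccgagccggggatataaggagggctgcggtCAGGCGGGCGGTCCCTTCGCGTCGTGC
Slc17a5, chr9:78587996-78588295 (- strand): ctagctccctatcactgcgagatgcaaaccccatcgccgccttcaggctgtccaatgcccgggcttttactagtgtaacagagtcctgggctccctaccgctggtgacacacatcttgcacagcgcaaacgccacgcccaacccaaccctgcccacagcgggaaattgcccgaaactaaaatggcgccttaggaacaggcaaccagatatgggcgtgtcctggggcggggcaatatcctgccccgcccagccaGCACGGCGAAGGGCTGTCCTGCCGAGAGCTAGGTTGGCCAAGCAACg
Slc38a10, chr11:120151302-120151601 (- strand): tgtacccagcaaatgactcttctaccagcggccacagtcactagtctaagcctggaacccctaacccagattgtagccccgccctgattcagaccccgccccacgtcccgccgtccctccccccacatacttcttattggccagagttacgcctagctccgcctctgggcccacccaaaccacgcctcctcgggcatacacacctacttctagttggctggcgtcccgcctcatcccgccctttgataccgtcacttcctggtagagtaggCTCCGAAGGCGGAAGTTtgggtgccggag

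Slc3a2, the heavy chain that carries several amino acid exchangers to the plasma membrane, had its capitals in 11 bases, with the peak 18 bp past the annotated transcript start. That start lies inside the gene, with the site at 57.56% of the gene span. This site held 84.11% of the reads of the gene, at 25 and 24 reads in KO against 14 and 27 in WT. Slc25a28, a mitochondrial iron carrier also called mitoferrin-2, had its only site there, with 12 and 27 reads in KO against 33 and 16 in WT. Slc35f5, a member of the nucleotide sugar transporter family, likewise had all its reads there, at 0 and 10 in KO against 1 and 10 in WT. In Slc25a4, the ADP/ATP carrier of heart and muscle, the site at the start held 3.874% of the reads, so nearly all its reads began further downstream. Slc17a5, the sialic acid exporter of lysosomes, had 4 and 12 reads in KO against 0 and 6 in WT at its start. The counts of KO and WT at the start overlapped for Slc3a2, Slc25a28, Slc35f5 and Slc17a5. For Slc25a4 the site had 16 and 18 reads in KO against 19 and 26 in WT, or 10.5, 15.53, 25.78 and 30.03 after normalization, with KO below WT and not called (DESeq2 adjusted p = 0.9999). Slc38a10, a member of the neutral amino acid transporter family, had 0 and 2 reads in KO against 8 and 7 in WT at its start, with both KO libraries below both WT libraries at counts under the filters of DESeq2 and edgeR, and the site also lies within the lncRNA gene Gm11769. Another class c site of Slc38a10 lay just outside the window, at chr11:120151229-120151240 and also within Gm11769. It did not show this order, with 15 and 5 reads in KO against 2 and 5 in WT. The 5 sites within 100 bp of the gene start were those of Slc17a5, Slc25a4 and Slc38a10 and sites of Slc15a3 and Slc20a2, chosen by this distance. Slc15a3, a peptide and histidine transporter of lysosomes, likewise had both KO libraries below both WT libraries, at 0 and 2 reads against 8 and 9 (edgeR adjusted p = 0.485, under the filter of DESeq2). Slc20a2 had 6 and 15 reads in KO against 0 and 5 in WT, and overlapped after normalization, at 3.938, 12.94, 0 and 5.775. Motifs were counted over the windows, with the earliest listed for each gene. The 104 solute carriers all had reads here, whereas the 27025 genes set beside them were not limited to the 9838 of the table. The shares therefore do not show a trait of solute carriers among the genes read in this muscle. The letters GGGCGG, the core of the Sp1 motif, were found on either strand in 67.31% of the solute carrier genes and 35.91% of all 27025 genes. TATAAA was found in 8.654% against 14.16%, CCAAT in 33.65% against 37.92%, and AAGGTCA, the core bound by estrogen-related receptors, in 1.923% against 4.659%.

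Most solute carrier sites lay in introns or near the 3′ end of the gene. Intronic sites (class code i) numbered 223 of 383, or 58.22%, against 51.98% of all sites with a gene, and sites contained in an annotated exon structure (class code c) numbered 142, or 37.08%, against 38.63%. The intronic sites took 50.32% and 43.13% of the solute carrier reads in KO and 44.33% and 42.34% in WT. Over all genes intronic sites took 23.85%, 18.59%, 21.55% and 15.58% of reads in the same order. Without ribosomal and mitochondrial RNA, a choice made after seeing the data, these shares were 38.68%, 30.34%, 35.3% and 27.69%, below the solute carriers in each library. The 151 exonic sites had their median at 91.5% of the gene span counted from its 5′ end, against 81.85% over all genes, and 99 of them (65.56%) lay beyond 80% of the span, against 51.79%. Intronic sites spread along the gene, with a median at 41.46% of the span against 43.06% over all genes. A median width of 7 bp for intronic and 21.5 bp for class c sites was measured. In 50 genes all sites were intronic and in 41 none was. There were 11 sites on the strand opposite to their gene.

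**Figure D1:**
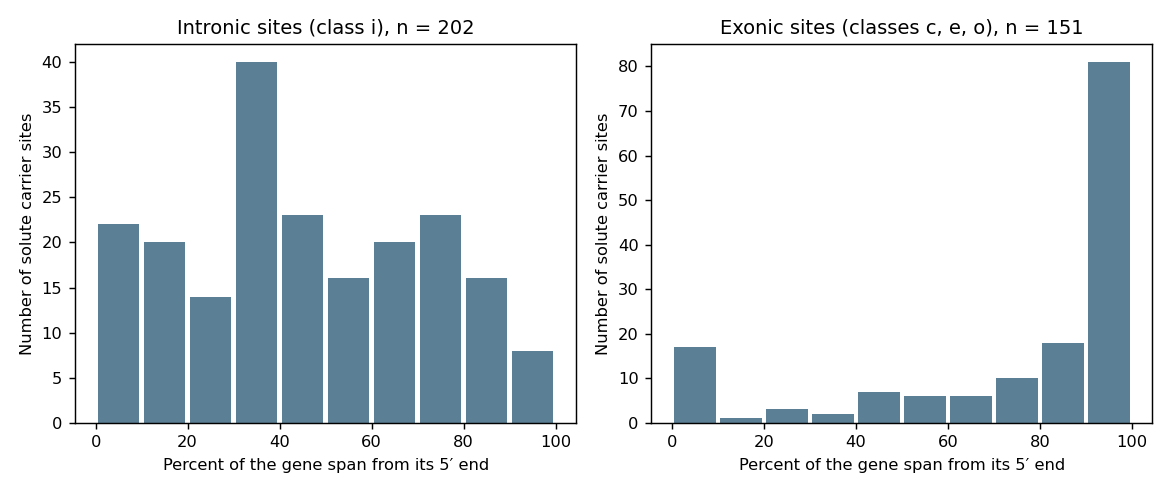
Number of solute carrier start sites (vertical axis) by their position along the gene, in percent of the gene span from its 5′ end (horizontal axis), for intronic sites (left) and exonic sites (right), all 4 libraries together. Exonic sites pile up beyond 90% of the span, with a median at 91.5%, whereas intronic sites are spread over the gene.

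Reads of the solute carriers were concentrated in few genes. Of 21945 reads, 18.43% came from Slc16a1, 49.87% from 6 genes and 62.45% from 12 genes, and 93 genes had fewer than 100 reads over the 4 libraries. The median solute carrier had 47 reads against 64 for all genes, and 2.858 sites on average against 4.109. A share of 55.22% of the genes had more than 1 site, against 61.75% of all genes. Together the family took 4565 and 4106 ppm of the reads outside ribosomal and mitochondrial RNA in KO against 4547 and 4258 in WT, and these values overlapped. The read counts are not per length and do not order the genes by the number of their transcripts.

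More of the sites were seen in KO, and the gap was smaller after thinning. KO libraries had 1 or more reads at 323.5 ± 16.3 sites, and WT libraries at 272.5 ± 14.8 (mean ± SD, n = 2). After thinning each library to 1300069 reads in total the numbers were 301.8 ± 13.9 and 268.7 ± 20.2. For sites with at least 5 reads the thinned numbers were 136.1 ± 7.5 and 135.7 ± 2.4. Thinning to 818059 reads outside ribosomal and mitochondrial RNA, also chosen after seeing the data, gave 304.2 ± 13.6 sites in KO and 270.5 ± 17.7 in WT. As every site in the table has at least 10 reads over the 4 libraries, sites of the deeper libraries enter it more readily. Sites read in a single library numbered 29, of which 20 were from KO replicate 1, the deepest library.

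**Figure D2:**
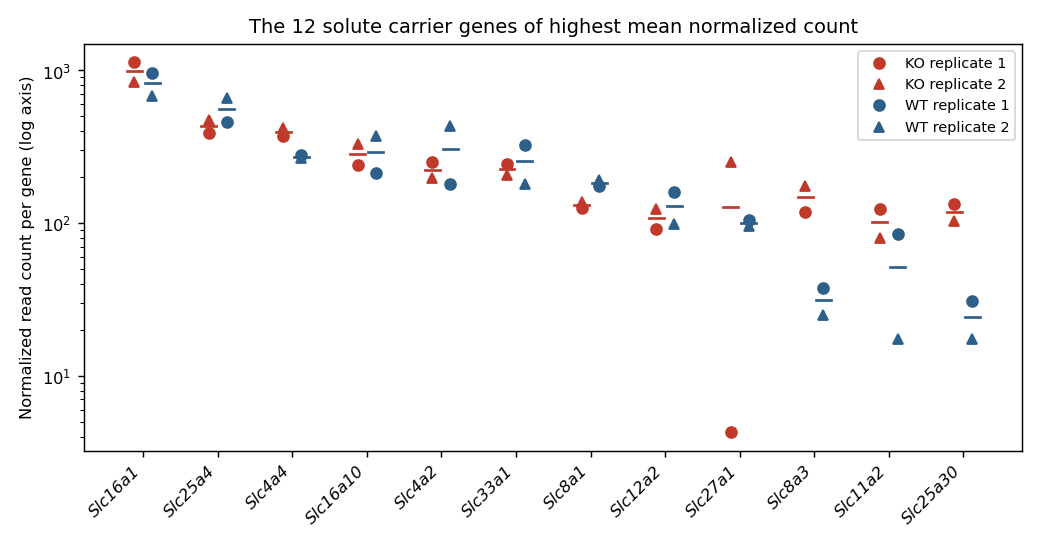
Normalized read count per gene (log axis) of the 12 solute carrier genes of highest mean count, with points for each library and a line for the mean of each group (n = 2). Slc8a3 and Slc25a30 have both KO libraries above both WT libraries by the widest margin, and KO replicate 1 stands low for Slc27a1.

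Few solute carriers differed in level between the genotypes. With counts summed over the sites of a gene, 53 of the 134 genes passed the filter on low counts of DESeq2 (a mean of 16.53 normalized counts), and 2 of them, Slc8a3 and Slc25a30, were higher in KO at an adjusted p under 0.1. Over all tested genes 1.71% were called higher. None of the 53 was called lower, against 0.96% of all tested genes. At an unadjusted p under 0.05 there were 2 higher and 3 lower, where 9.77% of all tested genes passed this limit. The edgeR quasi-likelihood test called 0 of 74 solute carriers, with 12 at an unadjusted p under 0.05 (10.5% of all genes it tested), against 0.883% called of all genes, and its smallest adjusted p was 0.1304. The median log2 fold change of the 53 genes was -0.18 against 0.01 over all tested genes, and 24 of them were above 0. Both KO libraries were above both WT libraries in 9 genes (16.98%, against 22% of all tested genes) and below them in 11 (20.75%, against 19.4%).

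**Figure D3:**
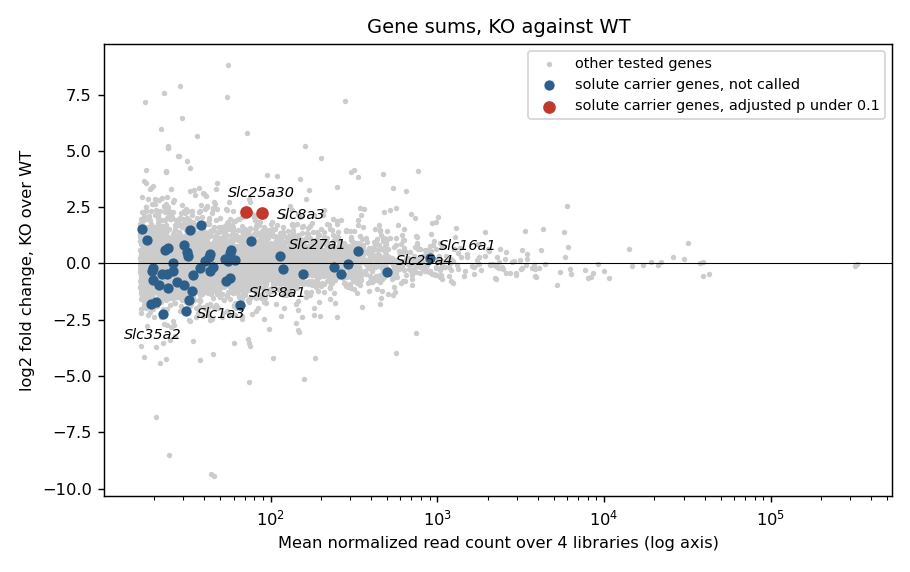
log2 fold change of KO over WT (vertical axis) against the mean normalized read count (horizontal log axis) for solute carrier genes (large points) and the other tested genes (grey). The 2 called genes, Slc8a3 at 2.23 and Slc25a30 at 2.30, are marked in red, and the genes with most reads lie near 0.

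Slc8a3 encodes a sodium/calcium exchanger of the plasma membrane that is found in skeletal muscle and brain. It had 195 and 201 reads in KO against 27 and 20 in WT, or 119.1, 175.6, 37.86 and 24.91 after normalization. Both KO libraries were above both WT libraries. The log2 fold change was 2.23 (SE 0.62), with an adjusted p of 0.0234 from DESeq2 and 0.1304 from edgeR. Leaving out either KO library or WT replicate 2 ended the call, with log2 fold changes of 2.50, 1.94 and 1.93. The gene had 11 sites, 9 of them intronic, and intronic sites held 93.68% of its reads. At the called site, in an intron at chr12:81212938-81212964 on the minus strand, 89 and 106 reads were counted in KO against 3 and 7 in WT. This was a log2 fold change of 3.61 (SE 0.99), with an adjusted p of 0.0203 from DESeq2 and 0.1241 from edgeR. At the other 10 sites together the normalized counts were 64.75 and 83.04 in KO against 33.66 and 16.19 in WT, again without overlap. The call of the single site was lost when any 1 of the 4 libraries was left out, at log2 fold changes of 3.22 to 4.15. Of the 11 sites, 5 had both KO libraries above both WT libraries. Of all tested sites 23% did, a share that leaves out sites under the filter. At 4 of the other 10 sites there were no reads in WT. Such sites enter the table through the deeper KO libraries alone. Over all 383 solute carrier sites, 53 had no reads in both WT libraries and 8 had none in both KO libraries. No site lay at the annotated start, and the one nearest to it, of class c, lay at 14.06% of the gene span.

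Slc25a30 encodes a mitochondrial carrier of the kidney type, related to the uncoupling proteins. It had 220 and 118 reads in KO against 22 and 14 in WT, or 134.4, 103.1, 30.85 and 17.44 after normalization. The groups did not overlap. The log2 fold change was 2.30 (SE 0.67), with an adjusted p of 0.0345 from DESeq2 and 0.1321 from edgeR. Here too the call was lost without either KO library or without WT replicate 2, at log2 fold changes of 2.11, 2.49 and 1.92. All 3 of its sites were intronic and each had both KO libraries above both WT libraries. The called site at chr14:75782747-75782758 held 58 and 54 reads in KO against 3 and 0 in WT, a difference of at least 11.2-fold higher against the floor of 3 counts per WT library (DESeq2 adjusted p = 0.0668, edgeR adjusted p = 0.163). It kept its call without WT replicate 1 and lost it without each of the other libraries, at log2 fold changes of 3.33 to 4.58. The site with most reads, at chr14:75768290-75768304, held 133 and 58 reads in KO against 18 and 14 in WT and was not called (log2 fold change 1.76, DESeq2 adjusted p = 0.502).

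Slow fibre genes as a sum were read less in WT replicate 1, at 293.4 ppm. They took 767 to 903.7 in the KO libraries and 777.5 in WT replicate 2. Singly, Tnnt1, Tnni1, Tnnc1 and Atp2a2 had both KO libraries above both WT libraries after normalization, and Myh7 and Myl3 overlapped. Tnnt1 had 65.36 and 94.38 in KO against 7.011 and 46.08 in WT. DESeq2 called none of the 5 tested, and 22% of all tested genes had this order. Fibroblast genes were read less in both KO libraries. The part of these differences in the values of Slc8a3 and Slc25a30 was not tested.

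At the level of single sites, 92 of 383 had a mean of at least 8.763 normalized counts and were tested. DESeq2 called 3 of them higher in KO, where 2.33% of all tested sites were called higher, and none lower, where 0.882% were. All 11 tested sites with an unadjusted p under 0.05 were higher in KO. Of all tested sites 9.63% passed this limit, a share that was not split by direction. With the sites under the filter counted too, 15 solute carrier sites passed it. Among these was a site of Slc12a2 that was lower in KO, with 18 reads in WT replicate 2 alone. The edgeR test called 0 of 88 (0.712% of all sites), with 8 at an unadjusted p under 0.05 (10.3%). Both KO libraries were above both WT libraries at 16 tested sites (17.39%, against 23% of all tested sites) and below them at 15 (16.3%, against 17.4%). The third called site belongs to Slc33a1, the acetyl-CoA transporter of the endoplasmic reticulum, and rests on a single library. It lies at chr3:63942565-63942574 and had 0 and 73 reads in KO against 0 and 0 in WT (DESeq2 adjusted p = 0.0845). With KO replicate 2 left out no reads remained at this site, and without either WT library the call was lost. The main site of that gene, in an intron at chr3:63951936-63951954, had 394 and 161 reads in KO against 231 and 131 in WT. The summed counts of Slc33a1, 242.5 and 208 in KO against 326.7 and 181.8 in WT, overlapped, with an adjusted p of 0.992 from DESeq2.

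**Figure D4:**
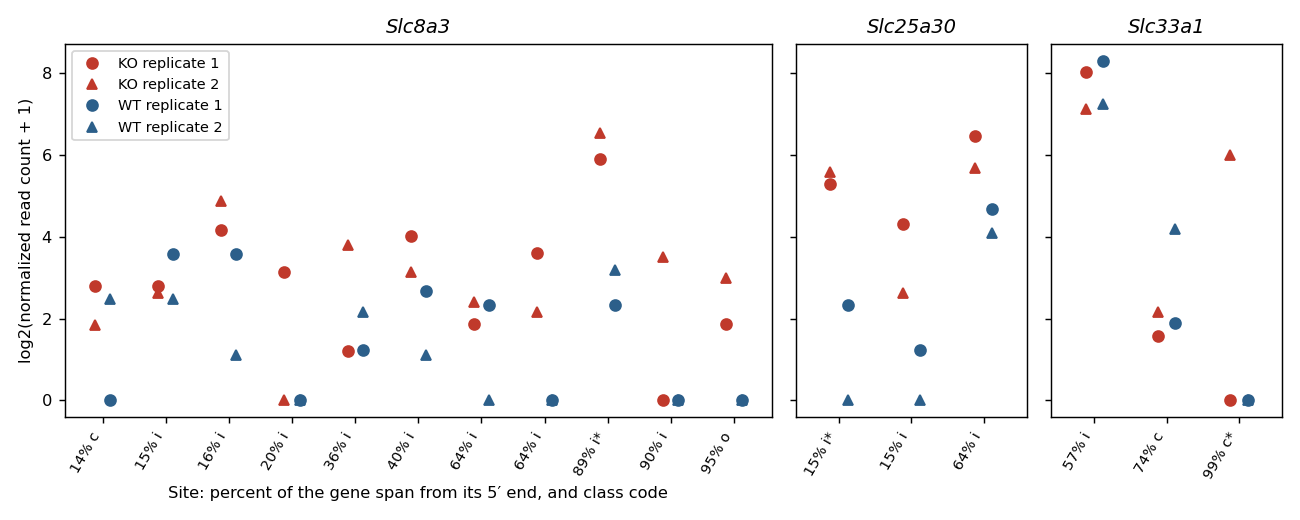
log2 of the normalized read count plus 1 (vertical axis) at each site of Slc8a3, Slc25a30 and Slc33a1 in each library, with sites ordered by percent of the gene span from its 5′ end and named by class code (i intronic, c within a transcript, o other exonic overlap). Stars mark the 3 called sites, and that of Slc33a1 has reads in KO replicate 2 only.

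The use of sites within a gene was compared for the 13 solute carriers with at least 2 sites of sufficient depth, and none was called by diffSpliceDGE with the Simes method, against 1.77% of 2145 genes. The smallest adjusted p was 0.862, for Slc43a3, and 0 genes had an unadjusted p under 0.05, against 9.04% of all genes. The F test of the same tool also called 0, against 3.31%, with an unadjusted p of 0.0367 for Slc43a3 and 0.0454 for Slc12a2. Without KO replicate 1, 1 gene was called, Slc33a1, through the site read in KO replicate 2 alone (adjusted p = 0.086).

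Among the 22 mitochondrial carriers, 8 were tested and 1 was called, Slc25a30. Slc25a4, which exchanges ADP for ATP across the inner membrane, had 389.7 and 471 normalized counts in KO against 461.3 and 663.8 in WT, which overlapped (log2 fold change -0.39, SE 0.44, DESeq2 adjusted p = 0.929). None of its 12 sites was intronic. One of them, at chr8:46207456-46207459, was antisense to an exon and held 177 and 186 reads in KO against 90 and 70 in WT, or 116.2, 160.5, 122.1 and 80.86 after normalization, so the sum for Slc25a4 includes reads of the other strand.

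Slc25a20, the carnitine-acylcarnitine carrier that brings fatty acids into mitochondria, had a single site at 99.05% of the gene span with 20 and 56 reads in KO against 1 and 0 in WT. Both KO libraries were above both WT libraries. As a gene it fell under the filter of DESeq2 on low counts (edgeR adjusted p = 0.141), and as a site it was at least 8.15-fold higher against the floor of 3 counts per WT library and missed the threshold (DESeq2 adjusted p = 0.107, edgeR adjusted p = 0.151). When only exonic sites were summed per gene, an alternative chosen after seeing the data, it was called with a DESeq2 adjusted p of 0.098. Its only site is exonic, so its own reads were unchanged in that fit. What differed were the counts of other genes, the size factors and the filter. Slc25a35, a further mitochondrial carrier chosen after its values were seen, had 31 and 18 reads in KO against 2 and 0 in WT at its only site, which was not called (DESeq2 adjusted p = 0.467, edgeR adjusted p = 0.320). Solute carriers under the filter also went the other way, such as Slc26a10 of the inorganic ion class, with 0 and 0 reads in KO against 13 and 2 in WT. Slc25a12, the aspartate/glutamate carrier of the malate-aspartate shuttle, had 16.49 and 34.08 normalized counts in KO against 12.62 and 4.98 in WT (DESeq2 adjusted p = 0.814). Slc25a3, the phosphate carrier, had 10.38 and 41.94 in KO against 11.22 and 39.86 in WT. The replicates of Slc25a3 differed more than the groups.

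The inorganic ion class had 24 genes, 13 of them tested and 1 called, Slc8a3. Slc4a4, a sodium bicarbonate cotransporter, had 25 sites, the most of any solute carrier, and 22 of them were intronic. Its normalized counts were 374.4 and 420.3 in KO against 277.7 and 267.8 in WT, without overlap and not called (log2 fold change 0.54, SE 0.44, adjusted p = 0.866 by DESeq2). Slc8a1, the sodium/calcium exchanger best known from heart, had both KO libraries below both WT libraries, with 125.2 and 138.1 in KO against 173.9 and 193 in WT, a log2 fold change of -0.48 (SE 0.50, with an adjusted p of 0.920 by DESeq2). Slc12a2, the sodium-potassium-chloride cotransporter NKCC1, overlapped between the groups at 92.23 and 124.1 in KO against 159.9 and 98.39 in WT. Of the reads of Slc4a2, an anion exchanger, 97.31% lay at an intronic site on the strand opposite to the gene, at chr5:24437779-24437829, and no other RefSeq gene spans it. Its summed counts of 251.7 and 196.6 in KO against 179.5 and 435.9 in WT are therefore uncertain as a measure of Slc4a2. The phosphate transporters Slc20a1 and Slc20a2 were under the filter of DESeq2. Slc20a1 had 21 and 18 reads in KO against 14 and 14 in WT. After normalization both KO libraries were below both WT libraries, at 12.83 and 15.73 against 19.63 and 17.44. Slc20a2 had 12 and 22 reads in KO against 1 and 5 in WT, or 7.33, 19.22, 1.402 and 6.227 after normalization. A site of Slc20a2 also lies within Smim19.

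Lactate and other monocarboxylates are carried by the Slc16 family, which made up the class of 6 mono- and dicarboxylate transporters. Slc16a1, or MCT1, had 1128 and 842.4 normalized counts in KO against 962 and 682.5 in WT, which overlapped (log2 fold change 0.26, SE 0.43, DESeq2 adjusted p = 0.961). A single exonic site at chr3:104656778-104656849, at 91.79% of the gene span, held 88.43% of its reads. Slc16a10, an aromatic amino acid transporter, had 239.4 and 331.2 in KO against 214.5 and 373.6 in WT. Slc16a3, or MCT4, the lactate exporter of fast fibres, had only 5 and 1 reads in KO against 0 and 5 in WT at a site that also lies within Csnk1d, so no difference was detectable at this depth.

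**Figure D5:**
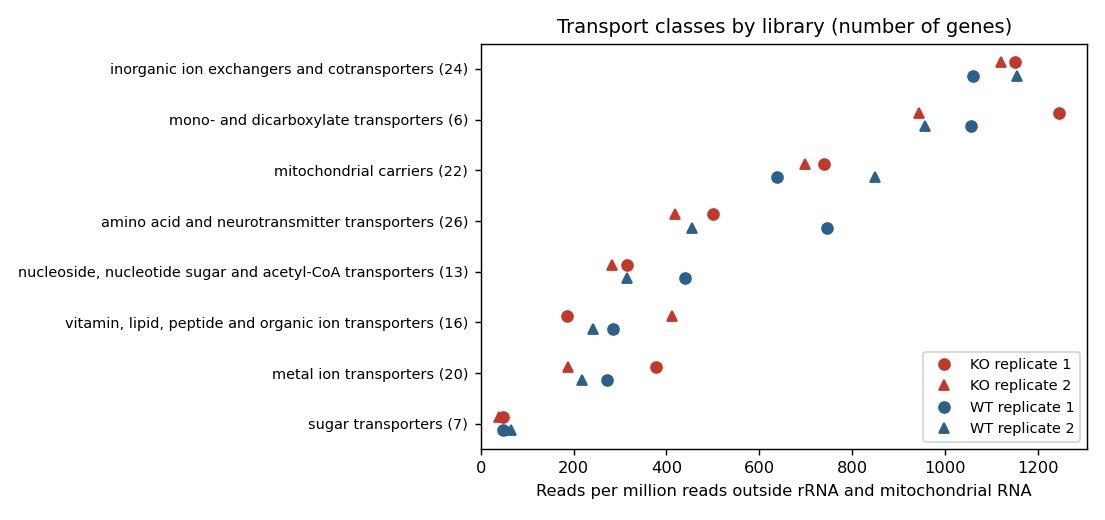
Read share in ppm of the reads outside ribosomal and mitochondrial RNA (horizontal axis) in each library for 8 transport classes, with the number of genes in parentheses. KO and WT overlap in each class other than the sugar transporters, at 47.94 and 39.98 in KO against 48.9 and 64.61 in WT. That class rests on 88 and 58 reads in KO against 40 and 59 in WT. They include Slc5a3, with 2 and 9 reads in KO against 9 and 18 in WT, whose 3 sites also lie within Mrps6. The amino acid class is highest in WT replicate 1 at 745.7.

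Of 26 genes in the amino acid and neurotransmitter transporter class 15 were tested and none was called. Summed over the class they took 500.6 and 417.7 ppm in KO against 745.7 and 454.5 in WT. Slc38a1, a glutamine transporter, had 14.05 and 43.69 normalized counts in KO against 169.7 and 34.87 in WT, and WT replicate 1 stood apart from the other libraries (log2 fold change -1.83, DESeq2 adjusted p = 0.416). The same library was high for Slc1a3, a glutamate transporter of glia, at 92.55 against 8.552, 14.86 and 8.718 in the others (log2 fold change -2.12, adjusted p = 0.499 from DESeq2), and Schwann cell genes were highest there too, at 75.79 ppm against 12.05 to 35.15. Their part in the result was not tested. Slc6a6, the taurine transporter, was without overlap at 50.09 and 47.19 in KO against 22.44 and 12.45 in WT and was not called (log2 fold change 1.49, SE 0.84, DESeq2 adjusted p = 0.626). Slc38a2 and Slc1a5, which carry glutamine and other neutral amino acids, overlapped, at 47.64 and 83.89 against 74.32 and 22.42 and at 71.47 and 43.69 against 82.73 and 24.91. Slc3a2 had 15.27 and 24.47 in KO against 29.45 and 41.1 in WT (DESeq2 adjusted p = 0.920).

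Among the 16 transporters of vitamins, lipids, peptides and organic ions, 5 were tested and none was called. Slc27a1, or FATP1, a long-chain fatty acid transporter, differed more between the KO replicates than between the groups, with 7 and 286 reads in KO against 75 and 77 in WT. Without KO replicate 2 the gene was called lower in KO (log2 fold change -4.55, DESeq2 adjusted p = 0.00368), and without KO replicate 1 the log2 fold change was 1.32 with an adjusted p of 0.999 from DESeq2. Nearly all of the spread lay at an exonic site at chr8:71586571-71586607, with 1 and 275 reads in KO against 66 and 55 in WT. Slc44a2, a choline transporter-like protein, had 37.26 and 101.4 normalized counts in KO against 42.07 and 49.82 in WT. The carnitine transporter Slc22a5 had 65.97 and 48.06 in KO against 33.65 and 64.76 in WT. Slc27a4 had 14 reads, all in KO replicate 2.

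Of 20 metal ion transporters 5 were tested and none was called. Slc11a2, the iron and manganese transporter DMT1, had 124.6 and 79.52 normalized counts in KO against 85.54 and 17.44 in WT, which overlapped (DESeq2 adjusted p = 0.826). Slc31a1, the copper importer CTR1, had 58.03 and 30.58 in KO against 74.32 and 66.01 in WT (adjusted p = 0.920 from DESeq2). Slc39a14, a zinc and iron importer, and Slc40a1, the iron exporter ferroportin, had 30 or fewer reads in all and were under the filter of DESeq2, at 16 and 2 against 10 and 2 reads and at 9 and 1 against 0 and 8. The edgeR test of Slc39a14 gave an adjusted p of 0.948.

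The 13 nucleoside, nucleotide sugar and acetyl-CoA transporters had 5 tested and none called as genes. Slc35a2, the UDP-galactose transporter of the Golgi, had 3.054 and 13.11 normalized counts in KO against 12.62 and 62.27 in WT, and WT replicate 2 stood apart from the other libraries (log2 fold change -2.24, DESeq2 adjusted p = 0.505). Slc29a1, the nucleoside transporter ENT1, had 25.65 and 31.46 in KO against 39.26 and 41.1 in WT (adjusted p = 0.960 from DESeq2). None of the 7 sugar transporters reached the filter of DESeq2. The 2 with most reads, the glucose-6-phosphate transporter Slc37a4 and its relative Slc37a3, had 4.276 and 23.59 against 15.43 and 17.44 and 13.44 and 8.738 against 11.22 and 16.19 normalized counts. Slc2a3, or GLUT3, had 30 and 7 reads in KO against 5 and 2 in WT. After normalization its counts overlapped, at 18.32 and 6.117 in KO against 7.011 and 2.491 in WT.

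Of 25 transporters listed as known in muscle, 22 were in the table, and Slc25a11, Slc2a1 and Slc7a5 were not among its symbols. Of 31 further genes that work with solute carriers, 24 were in the table and 12 were tested. None of the 12 was called by DESeq2, 0 had an unadjusted p under 0.05, and their median log2 fold change was 0.13. The pyruvate carrier subunit Mpc2 had 150.3 and 307.6 normalized counts in KO against 93.95 and 361.2 in WT, and the groups overlapped.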

How the data were processed

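WTSS-seq libraries were prepared by the authors from rRNA-depleted total RNA by template switching and PCR and sequenced on an Ion Torrent instrument. The authors deposited 1 table of raw read counts per clustered start site, mapped to GRCm38.p5 per the labels, with gene symbols and Cuffcompare class codes. Mapping and clustering settings for these libraries were not given in the sources used here. No molecular identifiers were described, so floors cover counting error only. The table lists sites of at least 10 reads over the 4 libraries, with totals of 1300069 to 2900279 reads.

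Groups and replicate numbers came from the labels. KO was compared with WT over all sites, and over counts summed per symbol, by DESeq2 1.42.0 under R 4.3.3 (Wald test, median-of-ratios size factors, independent filtering) at a p under 0.1 after Benjamini-Hochberg adjustment, as in the study's methods. For comparison edgeR 4.0.16 was used with its quasi-likelihood test and, for site usage, diffSpliceDGE, and the scripts were tested on simulated data. Gene starts, strands and promoter sequences came from RefSeq tables of GRCm38.p6, which shares the primary chromosomes. Detection was thinned to 1300069 reads as the mean of 5 draws (Python version 3.11.15). Named genes were the called ones, the 12 of highest mean count, the top 2 of each class, the 5 with most sites, the 3 uncalled with the smallest unadjusted p and 25 listed muscle transporters. Any other gene was named after its values were seen. Members and lists were chosen with earlier results of these data known. Alternatives covered the tool, scaling, filters, threshold, summed sites, a replicate block and each library left out.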

Additional observations from a re-analysis of the deposited data

How the results depend on the processing

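The 3 solute carrier sites called higher in KO remained 3 with TMM size factors and on primary chromosomes alone, and 2 with at least 5 reads in 2 libraries. They were 1 with size factors from reads outside ribosomal and mitochondrial RNA, 1 with independent filtering off, 1 at an adjusted p under 0.05 and 0 with edgeR, and 0 to 1 when each library was left out. No site was called lower under any alternative. The 2 genes called higher stayed called, both Slc8a3 and Slc25a30, with TMM factors, with the other size factors, filters and threshold, without antisense exonic sites and without WT replicate 1. The number was 0 with edgeR, 1 with sums over exonic sites (Slc25a20, an alternative chosen after seeing the data) and 0 to 2 when each library was left out. The number called lower was 0 to 1, the 1 being Slc27a1 without KO replicate 2. Changed usage went from 0 to 1 without KO replicate 1. Same-numbered libraries shared only a number, with a correlation of 0.0718 of their deviations over 11242 sites. The replicate block gave 1 called site with DESeq2 and 0 with edgeR, and 2 called genes with either tool. The share of reads near the gene start rose from 0.629% to 1.43% in KO and from 1.3% to 3.01% in WT when the window was 500 bp. Sites detected per library were 323.5 in KO and 272.5 in WT, 301.8 in KO after thinning, 224 and 146.5 with at least 5 reads, and 136.1 and 135.7 with both. With thinning to equal reads outside ribosomal and mitochondrial RNA, chosen after seeing the data, KO had 304.2 sites and WT 270.5, and 136.3 and 140 with at least 5 reads. The log2 fold changes of Slc8a3 and Slc25a30 stayed above 0 under each alternative that gave an adjusted p. Sums over exonic sites gave none for either gene, as Slc25a30 has no exonic site and Slc8a3 (log2 fold change 2.15, SE 1.93) fell under the filter. For both genes the cause of the lost calls was not tested.

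Depth limits these values, as 93 of 134 genes had fewer than 100 reads and 81 were under the filter of DESeq2, of which 60 were not tested by edgeR either.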
